A study of Mus musculus with 4 samples.

Results

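The longest stretches of open chromatin in mouse blood stem and progenitor cells were the 4872 ATAC-seq intervals of 3 kb or longer, out of 220733 intervals called in 4 libraries (2.21%). They were chosen by length alone, as every row of the deposited table with a length of at least 3000 bases, and rows of different libraries sharing at least 1 base were merged into 2027 regions, beside 69759 regions for all intervals. Length is therefore described here and not tested. ATAC-seq uses a transposase that inserts sequencing adapters into accessible DNA, so that an interval is a stretch with more insertions than its surroundings. The cells were LSK cells (Lin-Sca1+Kit+), a sorted bone marrow fraction that holds hematopoietic stem cells and early progenitors, with 50000 cells in each library. There were 2 libraries from p53R248W/+ mice (R248W 1 and R248W 2), which carry 1 mutant allele of the tumor suppressor p53 beside 1 wild-type allele, and 2 from p53+/+ mice (WT 1 and WT 2). The study asked how mutant p53 regulates transcription in these cells. The labels give no age or treatment and do not tell if each genotype's pair of libraries was made from different animals. The spread between them may thus be technical, lie between animals or both. The cells are a mixture, and fewer cells of a type and less open chromatin per cell cannot be told apart.

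Most open promoters give short intervals around the nucleosome-free site where transcription starts. CpG islands, stretches rich in unmethylated CG dinucleotides, mark the promoters of housekeeping genes and of many developmental regulators, and their chromatin is often open over more than the start itself. Genes that respond within minutes to a stimulus, such as those of the AP-1 and EGR families, and genes that control blood cell identity often lie in broad open domains, in which a promoter and nearby enhancers run together.

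Promoter sequences of genes in the longest regions cover a small part of these intervals. Shown are the 250 bases before the start of 7 genes whose starts lie in the longest regions called at 3 kb or more in all 4 libraries, 5′ to 3′, from RefSeq on GRCm38.p6, the assembly of the files' build mm10. Capitals mark matches on either strand to GGGCGG, a motif of SP and KLF factors (CCGCCC on the other strand), and CCAAT, the motif of NF-Y (ATTGG on the other strand). The TATA box motif TATAAA, the cAMP response element TGACGTCA, the AP-1 motif TGANTCA and the ETS factor motif CCGGAAG were also searched on both strands. These exact strings had no match in these 7 windows. Near variants were not searched, such as tgacatca in the Jun window, so a site of these factors is not shown to be absent.
Jun (chr4:95052223-95052472, minus strand): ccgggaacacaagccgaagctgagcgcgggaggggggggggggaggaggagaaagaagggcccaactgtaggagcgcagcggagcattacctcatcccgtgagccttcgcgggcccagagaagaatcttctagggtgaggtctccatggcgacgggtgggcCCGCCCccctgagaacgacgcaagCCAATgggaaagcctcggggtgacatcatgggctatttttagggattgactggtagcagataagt
Tgif1 (chr17:70853533-70853782, minus strand): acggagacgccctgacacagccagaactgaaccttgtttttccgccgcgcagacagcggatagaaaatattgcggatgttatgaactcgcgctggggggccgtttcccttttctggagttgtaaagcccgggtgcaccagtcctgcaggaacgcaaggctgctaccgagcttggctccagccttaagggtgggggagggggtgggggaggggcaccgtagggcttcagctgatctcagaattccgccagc
Pcdh7 (chr5:57717831-57718080, plus strand): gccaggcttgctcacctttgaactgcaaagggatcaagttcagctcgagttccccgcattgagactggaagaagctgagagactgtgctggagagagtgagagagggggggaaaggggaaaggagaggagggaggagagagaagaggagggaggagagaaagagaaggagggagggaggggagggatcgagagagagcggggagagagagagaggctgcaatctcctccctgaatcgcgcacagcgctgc
Mycn (chr12:12941837-12942086, minus strand): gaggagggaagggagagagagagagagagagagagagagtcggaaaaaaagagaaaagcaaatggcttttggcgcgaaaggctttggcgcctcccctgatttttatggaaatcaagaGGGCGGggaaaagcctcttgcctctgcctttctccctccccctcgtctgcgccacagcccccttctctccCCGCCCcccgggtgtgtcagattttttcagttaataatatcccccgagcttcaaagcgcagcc
Bbc3 (chr7:16310181-16310430, plus strand): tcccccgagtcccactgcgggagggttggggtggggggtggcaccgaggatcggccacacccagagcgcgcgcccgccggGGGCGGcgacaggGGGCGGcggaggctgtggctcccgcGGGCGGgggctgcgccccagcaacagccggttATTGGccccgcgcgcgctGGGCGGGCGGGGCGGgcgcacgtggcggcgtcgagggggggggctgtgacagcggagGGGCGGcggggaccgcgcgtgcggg
Gse1 (chr8:120537159-120537408, plus strand): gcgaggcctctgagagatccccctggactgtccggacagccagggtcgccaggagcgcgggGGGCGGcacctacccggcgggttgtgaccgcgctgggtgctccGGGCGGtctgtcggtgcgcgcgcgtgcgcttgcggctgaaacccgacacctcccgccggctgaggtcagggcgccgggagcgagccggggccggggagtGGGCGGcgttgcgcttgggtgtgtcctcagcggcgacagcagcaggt
Pcdh17 (chr14:84443313-84443562, plus strand): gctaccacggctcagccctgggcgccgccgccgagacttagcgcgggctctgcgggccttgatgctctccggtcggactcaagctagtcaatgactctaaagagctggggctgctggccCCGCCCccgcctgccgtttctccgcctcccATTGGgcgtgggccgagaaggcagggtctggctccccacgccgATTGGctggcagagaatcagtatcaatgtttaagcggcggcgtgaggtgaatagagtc
Bbc3 had 7 overlapping or separate GGGCGG matches, 37 CG dinucleotides and a GC content of 81.6%. Gse1 had 3 matches, 32 CG dinucleotides and 74.8% GC, whereas Pcdh7 and Tgif1 had no match to any of the motifs, with 7 and 15 CG dinucleotides. The Jun start lay 54.0 bases from the mean summit of the 4 intervals that covered it, the Pcdh17 start 107 bases and the Gse1 start 1759 bases. Where a gene had several starts in its region, the one closest to the mean summit was taken, which keeps these distances short.

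Over the RefSeq promoter windows of the same 250 bases, 701 had their start in a region of 3 kb or longer in all 4 libraries, and their median GC content was 65.2%, with a median of 19 CG dinucleotides. Windows whose start lay only in shorter intervals (13489) had 59.6% and 15, those in no interval (17265) 46.8% and 2, and all 32817 windows 52.4% and 6. GGGCGG was found in 68.9% of the 701 windows, against 55.3% of the windows in shorter intervals and 32.7% of all windows. CCAAT was found in 33.1%, 33.8% and 33.8% in the same order. CCGGAAG, an ETS factor motif, was in 7.13% of the 701 windows, 12.5% of those in shorter intervals and 6.90% of all, and TATAAA was in 7.70%, 6.09% and 12.4%. In the 2063 windows with their start in any region of 3 kb or longer, GGGCGG was found in 68.3%, CCAAT in 30.6%, CCGGAAG in 9.21% and TATAAA in 6.25%. These shares describe letters in a window, and neighboring genes share windows and regions.

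Long intervals were not equally frequent in the 4 lists. R248W 1 had 1618 and R248W 2 had 903, against 1020 in WT 1 and 1331 in WT 2, which were 2.68 and 1.77% of the R248W lists and 2.18 and 2.13% of the WT lists. The 2 R248W libraries thus held both the highest and the lowest count, so the spread within this genotype covered that of WT. They covered 6.14 and 3.33 Mb in R248W 1 and R248W 2, and 3.81 and 4.99 Mb in WT 1 and WT 2. Although few, they held 12.0 and 7.68% of the summed interval signal in the R248W libraries and 9.27 and 9.76% in the WT libraries. The median length was between 3453 and 3526 bases in every library, and the longest interval, at Jun in R248W 1, had 8729 bases.

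**Figure D1:**
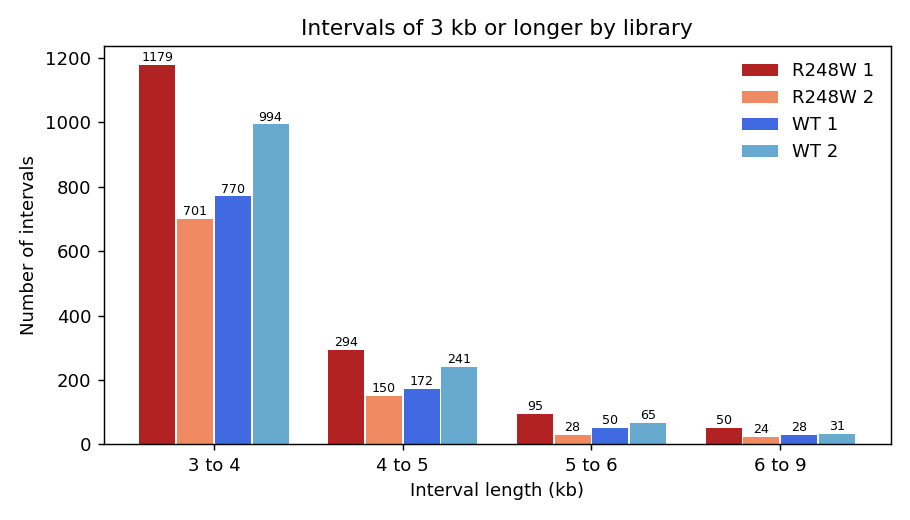
Number of intervals of 3 kb or longer in each library (bars, left to right R248W 1, R248W 2, WT 1 and WT 2), in length classes in kb. Most were of 3 to 4 kb, from 701 in R248W 2 to 1179 in R248W 1, and 24 to 50 per library were of 6 kb or longer.

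Around the limit the counts ran on without a step, with 654 intervals of 3000 to 3099 bases and 797 of 2900 to 2999 bases. Just inside were intervals of 3000 bases at Ccdc64b and Thoc6 (highest-bin signal 204) and at Ehbp1l1 (192) in R248W 1, and at Mocos (72) in R248W 2. Just outside were intervals of 2999 bases at Atp6v1a and Naa50 (236) in WT 1 and at Nab1 (103) and Prox1 (82) in WT 2. The highest-bin signal, named Peak Val in the table, is the authors' value for the strongest bin of about 32 bases in an interval, and the mean-bin signal (Avg Val) is the mean over its bins. No source used here gives their scaling between libraries, so signals were read only within a library's own list.

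Some strong, long loci had no interval at all in a library, most often in R248W 1. A region of 3 kb or longer had no interval at all in at least 1 library in 79 of 2027 cases (3.90%), and the share was 3.40% where the longest interval was of 3 to 4 kb and 12.3% where it was of 6 to 9 kb. Of the 79, R248W 1 and R248W 2 lacked 36 and 24, and WT 1 and WT 2 lacked 44 and 20. In 16 of the 79 another library had a highest-bin signal in the top 10% of its list, and R248W 1 lacked an interval in all 16, in 8 of them alone, R248W 2 in 1, WT 1 in 7 and WT 2 in 3. The loci were not small: no interval was listed in R248W 1 over 15.4 kb around Fos, 16.6 kb around Brd2 and 28.0 kb around Bcl11a. Why was not tested, and an absent interval at such a locus is not read as closed chromatin below.

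Promoters and CpG islands made up most of the long regions. Of the 2027 regions, 1639 carried the authors' promoter annotation (80.9%, Wilson 95% interval 79.1 to 82.5%), against 28.1% of all merged regions. A CpG island was present in 1576 (77.8%, 75.9 to 79.5%), against 17.6%, and both in 1462 (72.1%), against 15.5%. A long interval has more bases with which to touch an island or a promoter, so the position of the summit, a single base, was read as well: in 1294 regions (63.8%) a summit lay within 1 kb of an assigned start, against 18.6% of all merged regions. Without R248W 1 the promoter and island shares of the merged regions were 81.6% and 78.9%. The Wilson intervals count regions as independent and cover counting error only.

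The rest of the long regions were of 3 kinds. A promoter without an island was present in 177 (8.73%), and an island without a promoter in 114 (5.62%). The 274 regions with neither (13.5%) stood against 69.8% of all merged regions. No gene was assigned to 113 (5.57%), against 26.7%, while 854 (42.1%) had 2 or more genes. RefSeq starts on both strands lay inside 316 regions (15.6%), which places start sites of opposite direction in 1 open stretch. On the X chromosome lay 41 regions (2.02%), against 2.47% of all merged regions.

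The share with 2 or more CpG islands was higher among the longest of the long intervals. Among intervals of 3 to 4 kb, 11.2 and 15.5% of those in R248W 1 and R248W 2 and 11.8 and 11.3% of those in WT 1 and WT 2 touched 2 or more islands. Among those of 6 to 9 kb the shares were 36.0 and 58.3% in the R248W libraries and 50.0 and 41.9% in the WT libraries, on 24 to 50 intervals each. The share with any island was not highest there, at 86.0 and 87.5% in R248W 1 and R248W 2 and 89.3 and 77.4% in WT 1 and WT 2, beside 89.5 and 92.9% in the R248W libraries and 92.0 and 96.9% in the WT libraries among intervals of 5 to 6 kb. Intervals of 6 to 9 kb also had 2 or more assigned genes more often, in 56.0 and 66.7% in R248W 1 and R248W 2 and in 57.1 and 54.8% in WT 1 and WT 2. As a longer stretch can touch more features, these shares are a description.

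Within each library, long intervals had more often a CpG island than shorter ones. The mean share over 4 libraries was 81.6% ± 2.49 (SD, n = 4) for long and 20.2% ± 2.58 (SD, n = 4) for shorter intervals, and the difference was 60.3 to 62.4 points, positive in 4 of 4 libraries (two-sided exact sign-flip permutation test over libraries, p = 0.13, the smallest possible). Summits within 1 kb of a start made up 62.7% ± 1.26 of long and 21.3% ± 2.61 of shorter intervals (SD, n = 4 each), with a difference of 39.3 to 44.0 points, also positive in 4 of 4 (exact p = 0.13). Against intervals of 2 to 3 kb the island share was 11.6 points higher in long intervals. A longer interval has a greater chance to touch an island, so the choice by length favors both island differences. How much it adds was not tested. The summit share was 2.28 points lower in long intervals than in those of 2 to 3 kb, positive in 1 of 4 libraries (exact p = 0.375). Where intervals with both a promoter and an island were compared, the summit share was 14.7 points lower in long intervals, at 77.7% against 92.4%, in 4 of 4 libraries (exact p = 0.13). A shorter interval that touches a promoter has less room for a summit far from the start. The direction of this last difference thus follows in part from the choice by length, and how much was not tested.

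Long intervals rose more steeply above their own mean than shorter ones did. The median highest-bin signal of long intervals was 241 and 155 in R248W 1 and R248W 2 and 171 and 235 in WT 1 and WT 2, and that of shorter intervals was 61.0 and 50.0 in the R248W libraries and 51.0 and 60.0 in the WT libraries. The median mean-bin signal of long intervals was 55.2 and 41.9 in the R248W libraries and 41.8 and 53 in the WT libraries, and that of shorter ones 21.7 and 19 in the R248W libraries and 19.2 and 21.8 in the WT libraries. In the ratio of the highest-bin to the mean-bin signal a constant factor of a library cancels, while an effect of depth on it was not tested. This ratio had medians of 4.31 and 3.73 in R248W 1 and R248W 2 and of 3.91 and 4.25 in WT 1 and WT 2 for long intervals. For shorter intervals it was 2.83 and 2.64 in the R248W libraries and 2.68 and 2.80 in the WT libraries.

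The difference in this ratio was 1.31 on average and 1.08 to 1.48 by library, positive in 4 of 4 (two-sided exact sign-flip permutation test, p = 0.13, the smallest possible). Against intervals of 2 to 3 kb it was 0.433, and among intervals with both a promoter and an island 0.824. A long interval includes more low bins at its flanks, and the part of this in the ratio was not tested. The strongest bin was also less central: the summit lay in the central one of 3 equal parts of 43.3 and 40.0% of long intervals in R248W 1 and R248W 2 and of 43.8 and 43.7% in WT 1 and WT 2, against 88.6 and 89.0% of shorter intervals in the R248W libraries and 89.1 and 88.4% in the WT libraries. In most long intervals the strongest bin thus lay outside the central part. A minority was weak: 64 of the 1618 long intervals of R248W 1 (3.96%) had a highest-bin signal below the median of its list.

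**Figure D2:**
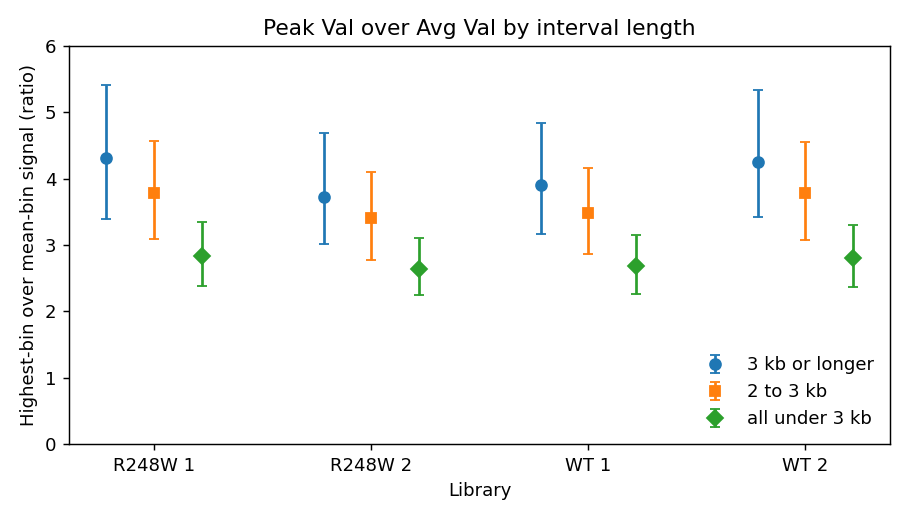
Median ratio of highest-bin to mean-bin signal (points) with the quartiles (bars) for intervals of 3 kb or longer, of 2 to 3 kb and of all lengths under 3 kb, in each library. In each of the 4 libraries the median fell in this order, with 4.31, 3.79 and 2.83 in R248W 1.

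The genotypes did not differ past their spread in promoter share, island share or median ratio, and the share of central summits was not tested. The promoter share of long intervals was 83.3% ± 1.59 in R248W and 83.2% ± 1.73 in WT libraries (SD, n = 2 each), a difference of 0.0718 points (two-sided exact permutation test, p = 1.00). The island share was 82.3% ± 2.82 in R248W and 81.0% ± 3.00 in WT libraries, a difference of 1.27 points (exact p = 0.667). The median ratio was 4.02 ± 0.413 in R248W and 4.08 ± 0.240 in WT libraries, a difference of -0.0569 (exact p = 1.00). With 2 libraries against 2, no p under 0.333 can be reached. Leaving out 1 library moved the ratio difference from -0.349 (without R248W 1) to 0.235 (without R248W 2), so its sign rested on single libraries.

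The 12 longest regions, ranked by the shortest of their 4 lengths, ran from the AP-1 gene Jun to Midn, and their lengths were close across the libraries. Jun, which encodes a subunit of the AP-1 transcription factor (region chr4:95046705-95055434), had intervals of 8729 and 8328 bases in R248W 1 and R248W 2 and of 8339 and 7498 bases in WT 1 and WT 2. Its highest-bin signal was 742 and 423 in the R248W libraries and 358 and 706 in the WT libraries, at or above the percentile 98.4 of each list. The R248W and WT lengths overlapped.

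Tgif1, a homeodomain repressor of TGF-beta target genes (chr17:70846616-70854281), had intervals of 7665 and 7457 bases in R248W 1 and R248W 2 and of 7475 and 7532 bases in WT 1 and WT 2, with 3 CpG islands and signals of 171 and 127 in the R248W libraries and 127 and 218 in the WT libraries. The early-response gene Ier2 and its neighbor Nacc1 (chr8:84658398-84666161) had 7750 and 7372 bases in the R248W libraries and 7113 and 7379 bases in the WT libraries. In both regions the genotypes overlapped. Mycn, a MYC family transcription factor expressed in blood stem cells (chr12:12936665-12943428), had 6651 and 6703 bases in R248W 1 and R248W 2 and 6682 and 6737 bases in WT 1 and WT 2, a spread of under 100 bases between 4 libraries.

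Bbc3, the pro-apoptotic p53 target also called PUMA (chr7:16308146-16314764), had intervals of 6512 and 6558 bases in R248W 1 and R248W 2 and of 6615 and 6608 bases in WT 1 and WT 2. All 4 lengths thus lay within 6512 to 6615 bases, with both WT intervals slightly longer than both R248W intervals. The ratio was 3.79 and 3.71 in the R248W libraries and 4.10 and 3.91 in the WT libraries. How often the genotypes separate in this way over all regions was not counted, so no genotype difference is read from Bbc3. The protocadherin genes Pcdh7 and Pcdh17, which encode cell adhesion proteins, were also among the 12. Pcdh17 (chr14:84442112-84448873) had 6550 and 6625 bases in R248W 1 and R248W 2 and 6124 and 6718 bases in WT 1 and WT 2. Gse1 (chr8:120533951-120540915) had 6583 and 6217 bases in the R248W libraries and 6930 and 6493 bases in the WT libraries, with its authors' promoter annotation absent although its RefSeq start lay inside. Regions at Irgm1, an interferon-inducible GTPase gene, and Trim7, at Midn and 2 regions with no assigned gene completed the 12.

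**Figure D3:**
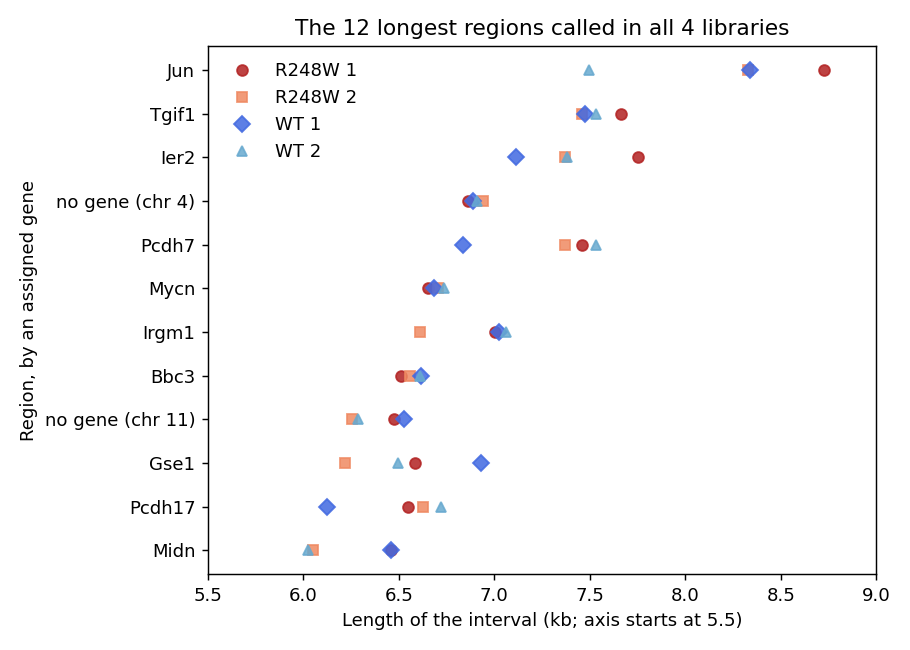
Length in kb (axis from 5.5) of the interval in each library (symbols) for the 12 regions with the greatest shortest length, from Jun at the top to Midn. Mycn and Bbc3 have all 4 symbols within about 0.1 kb, whereas Jun spreads from 7498 bases in WT 2 to 8729 bases in R248W 1.

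The strongest long regions were other genes. By the lowest within-library percentile of the highest-bin signal, the first 5 were at E2f3, Kat6b, Gsk3b, Ggps1 with Arid4b, and Edem3, each at or above the percentile 99.9 in all 4 lists. E2f3, an E2F transcription factor of the cell cycle (chr13:29982647-29987405), had signals of 1059 and 641 in R248W 1 and R248W 2 and of 618 and 1070 in WT 1 and WT 2, with lengths of 4528 and 4363 bases in the R248W libraries and 4365 and 4758 bases in the WT libraries. Kat6b, a histone acetyltransferase, had signals of 1018 and 654 in R248W 1 and R248W 2 and of 610 and 975 in WT 1 and WT 2. Its intervals had 3534 and 3480 bases in the R248W libraries and 3163 and 3273 bases in the WT libraries. The strongest regions were all under 5 kb, and 4 of the 5 under 4 kb. Over all long intervals, the median signal was greater at 6 to 9 kb, with 346 and 212 in R248W 1 and R248W 2 and 236 and 349 in WT 1 and WT 2, than at 3 to 4 kb, with 236 and 158 in the R248W libraries and 169 and 229 in the WT libraries.

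The ratio of highest-bin to mean-bin signal set needle-shaped regions apart from flat ones. Among the 585 regions called at 3 kb or longer in all 4 libraries Pcdh17 led, with 9.58 and 9.24 in R248W 1 and R248W 2 and 8.28 and 9.91 in WT 1 and WT 2, followed by the sialyltransferase gene St8sia4, the adhesion gene Alcam, a region at Elmsan1 and 1 at Dck, which encodes deoxycytidine kinase. Alcam (chr16:52449534-52454896) had 8.70 and 7.70 in the R248W libraries and 7.60 and 8.93 in the WT libraries.

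At the flat end of the same 585 regions lay the zinc finger gene Rreb1, 2 regions at Zic2 and Zic5, which are neural developmental genes, a region with no assigned gene on chromosome 15 and Erdr1 on chromosome Y. Rreb1 had ratios of 2.53 and 2.03 in R248W 1 and R248W 2 and of 1.94 and 2.16 in WT 1 and WT 2, and Erdr1 had 1.87 and 2.02 in the R248W libraries and 1.67 and 2.09 in the WT libraries. Across the 585 regions called at 3 kb or longer in all 4 libraries, the ratio ranked the regions alike, with a Spearman rho of 0.886 to 0.918 between pairs of libraries, given without a test because the same regions were called in each. All 4 summits lay within 100 bases of each other in 408 of the 585 (69.7%).

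Early-response and AP-1 genes had a long interval at their start in at least 1 library more often than the genes of the other 14 lists examined. A gene was counted where an interval of 3 kb or longer had its summit within 2.5 kb of the gene's assigned start. In at least 1 library this held for 20 of the 29 early-response genes with any interval (69.0%), against 8.91% of all 20811 genes with an interval, and in all 4 libraries for 8 (27.6%), against 2.79%. The 8 were Jun, Junb, Ier2, Ier3, Egr2, Klf2, Klf4 and Btg1. Without R248W 1 the count was 18 of 29 (62.1%), against 7.33% of all genes with an interval in the other libraries. The lists were drawn up with earlier results of these data known, and no test was made on the counts.

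Junb, the repressive relative of Jun, had 7417 and 6810 bases in R248W 1 and R248W 2 and 6909 and 5899 bases in WT 1 and WT 2. Klf2, a zinc finger factor of quiescence, had 7515 and 3284 bases in the R248W libraries and 6406 and 3460 bases in the WT libraries, so that each genotype held 1 interval above 6 kb and 1 below 4 kb. Dusp2, a phosphatase that switches off MAP kinases, had 7639 and 2662 bases in R248W 1 and R248W 2 and 6494 and 6298 bases in WT 1 and WT 2. At both genes R248W 2 had the shortest interval. Btg1, an antiproliferative gene, had 6389 and 3090 bases in the R248W libraries and 3124 and 3099 bases in the WT libraries, so R248W 1 alone was long beyond 4 kb there.

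Several genes of the list had no interval near the start in some libraries. There was none for 11 and 4 of the 30 genes in R248W 1 and R248W 2 (36.7 and 13.3%) and for 11 and 8 in WT 1 and WT 2 (36.7 and 26.7%), beside 26.0 and 27.5% of all 20811 genes in the R248W libraries and 30.3 and 25.0% in the WT libraries. Of its 30 genes, 18 had an interval whose summit fell inside 2.5 kb of the start in all 4 libraries, 8 in some libraries and 4 in none. Of the 8, R248W 1 lacked 7, R248W 2 lacked 0, WT 1 lacked 7 and WT 2 lacked 4. Fos, the dimer partner of Jun, had an interval in R248W 2 alone, of 3908 bases with a signal of 184. Klf6 had one of 2264 bases in R248W 2 and one of 5473 bases in WT 2 with a signal of 720, and none in R248W 1 or WT 1. Zfp36, which encodes an mRNA-destabilizing protein, had 3948 bases in R248W 2 and 3996 bases in WT 2, and none in R248W 1 or WT 1. These 3 patterns did not follow genotype. Egr3, an EGR family transcription factor, had 3581 and 2255 bases in R248W 1 and R248W 2 and no interval near the start in WT 1 or WT 2. It is named after its values were seen. The share of all genes with this pattern was not counted, so no genotype difference is read from Egr3.

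The 4 genes with no interval near the start in any library were Jund, Fosb, Atf4 and Klf10. The nearest interval to the gene body of Jund, the remaining Jun gene, lay 14.6 and 17.3 kb away in R248W 1 and R248W 2 and 17.4 and 17.2 kb away in WT 1 and WT 2. These genes are named after their values were seen. The count of early-response genes is thus one of listed intervals, and the genes without one are not shown to lack open chromatin.

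**Figure D4:**
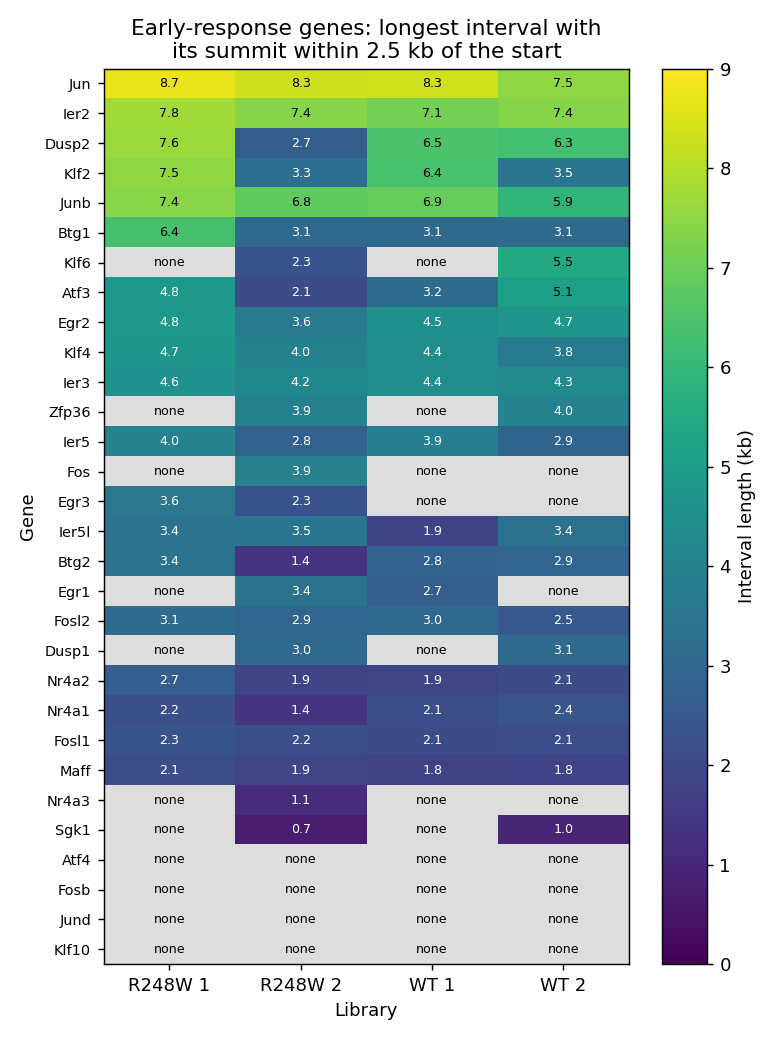
Length in kb (number and color) of the longest interval whose summit lay within 2.5 kb of the start for each of the 30 early-response genes (rows) in each library (columns); gray cells had no such interval. Jun, Ier2 and Junb are long in all 4 columns, while Fos has a value only in R248W 2 and the 4 genes at the bottom have none.

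Transcription factors of blood stem cells came next, with 13 of 30 genes in at least 1 library (43.3%, against 8.91% of all genes), and had more genes long in all 4 libraries than the early-response list, 10 of 30 (33.3%, against 2.79%). Without R248W 1 the first count was 12. The 10 were Mycn, Myc, Mllt3, Fli1, Etv6, Meis1, Mecom, Prdm16, Hhex and Gfi1. Myc, the cell growth factor gene, had 5518 and 5508 bases in R248W 1 and R248W 2 and 5391 and 5596 bases in WT 1 and WT 2. Mecom, a zinc finger gene needed for stem cell maintenance, had 6322 and 4494 bases in the R248W libraries and 3538 and 5424 bases in the WT libraries. Mllt3, a maintenance factor of human stem cells, had 5558 and 5080 bases in R248W 1 and R248W 2 and 4916 and 5401 bases in WT 1 and WT 2. The genotypes overlapped at Mecom, Mllt3 and Myc.

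Other stem cell factors had shorter intervals or none near the start. There was none for 6 and 4 of the 30 genes in R248W 1 and R248W 2 (20.0 and 13.3%). In WT 1 and WT 2 there was none for 6 and 5 (20.0 and 16.7%). Of all genes, 26.0 and 27.5% had none in the R248W libraries and 30.3 and 25.0% in the WT libraries. Gata2, Erg and Lmo2 had none in any library. Meis1, a homeodomain cofactor of HOX proteins, had 3946 and 3836 bases in R248W 1 and R248W 2 and 3355 and 3997 bases in WT 1 and WT 2, and Prdm16 had 4956 and 4499 bases in the R248W libraries and 3040 and 4701 bases in the WT libraries. Runx1, a master factor of blood formation, stayed under the limit with 1966 and 1866 bases in R248W 1 and R248W 2 and 2533 and 2001 bases in WT 1 and WT 2. Runx1, Gata2, Erg and Lmo2 are named after their values were seen.

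**Figure D5:**
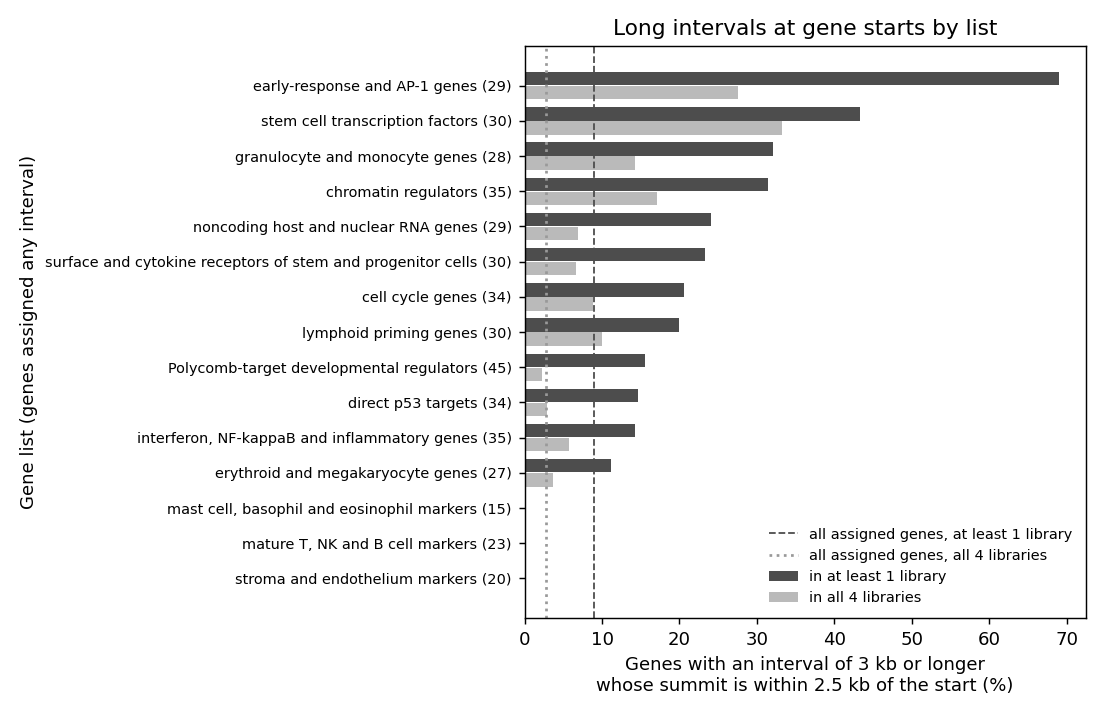
Percent of each list's genes with any assigned interval (number in parentheses) that had an interval of 3 kb or longer with its summit within 2.5 kb of the start, in at least 1 library (dark bars) and in all 4 (light bars). Dashed and dotted lines give the same shares for all 20811 genes, 8.91 and 2.79%; early-response genes reach 69.0% and the 3 lists of other cell types stand at 0.

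Lineage genes were long at a lower rate. Granulocyte and monocyte genes had 9 of 28 (32.1%), against 8.91% of all genes. Of the 9, 4 were long in all libraries, namely Cebpa, Cebpb, Gfi1 and Klf4. Cebpa, the master factor of granulocyte commitment, had 3788 and 3517 bases in R248W 1 and R248W 2 and 3756 and 3826 bases in WT 1 and WT 2. Lymphoid priming genes had 6 of 30 (20.0%), among them Gata3, a T lineage factor, with 5372 and 4591 bases in the R248W libraries and 4303 and 4892 bases in the WT libraries. Erythroid and megakaryocyte genes had 3 of 27 (11.1%), near the share of all genes. The count leaves out Tal1, a master factor of blood formation that is also in the stem cell list. Its region held a RefSeq start of Tal1 and was long in all 4 libraries, with 4570 and 3051 bases in R248W 1 and R248W 2 and 3276 and 4493 bases in WT 1 and WT 2, but no summit lay within 2.5 kb of the assigned start.

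Receptors of stem and progenitor cells had 7 of 30 (23.3%, against 8.91% of all genes), 2 of them, Cxcr4 and Itga4, in all 4 libraries. Cxcr4, the receptor that retains stem cells in the marrow, had 3620 and 3510 bases in R248W 1 and R248W 2 and 3526 and 3638 bases in WT 1 and WT 2, an example of a length that hardly varied. Flt3, a cytokine receptor of multipotent progenitors, had 3700 and 1961 bases in the R248W libraries and 3644 and 3935 bases in the WT libraries. Kit, which defines the sorted cells, stayed under the limit with 2653 and 2363 bases in R248W 1 and R248W 2 and 2280 and 2385 bases in WT 1 and WT 2.

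Chromatin regulators had 11 of 35 (31.4%) and cell cycle genes 7 of 34 (20.6%), against 8.91% of all genes. Arid1b, a subunit of the BAF remodeling complex, had 4567 and 4594 bases in R248W 1 and R248W 2 and 4461 and 4543 bases in WT 1 and WT 2. Dnmt3a, a DNA methyltransferase often mutated in clonal hematopoiesis in humans, had 3396 and 3400 bases in the R248W libraries and 3324 and 3529 bases in the WT libraries. Cdk6, a G1 kinase of stem cell activation, had 4632 and 4440 bases in the R248W libraries and 4376 and 4654 bases in the WT libraries, with a flat ratio of 2.38 and 2.20 in R248W 1 and R248W 2 and of 2.24 and 2.04 in WT 1 and WT 2. The genotypes overlapped at Dnmt3a and Cdk6, while both Arid1b intervals of R248W were slightly longer than both of WT. The share of all regions with such a separation was not counted, so no genotype difference is read from Arid1b.

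Direct p53 targets were long at a rate near that of all genes, with 5 of 34 in at least 1 library (14.7%, against 8.91%) and 1 in all 4 (2.94%, against 2.79%). Among them were Bbc3, Btg2, Ccnd2 and Rbm38. The Bbc3 region was long in all 4 libraries, but in R248W 1 no summit lay within 2.5 kb of the assigned start. Ccnd2, which encodes cyclin D2 and is also in the cell cycle list, had 7507 bases in R248W 1, 7332 in WT 1 and 7348 in WT 2, and no interval in R248W 2. Mdm2, the ubiquitin ligase gene of p53, stayed under the limit with 2583 and 1874 bases in the R248W libraries and 2018 and 1918 bases in the WT libraries. Interferon and NF-kappaB genes had 5 of 35 (14.3%) and Polycomb-target developmental regulators 7 of 45 (15.6%).

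No marker of another cell type had a long interval with its summit within 2.5 kb of its start. Mature lymphocyte markers had 0 of 23, mast cell, basophil and eosinophil markers 0 of 15, and stroma and endothelium markers 0 of 20. Of all genes 8.91% had one in at least 1 library, so lists this small would hold few, and the counts were not tested. Long regions were assigned to 2 of these markers with the summit farther from the start. One, assigned to the B cell gene Cd79a and to Arhgef1, had 4121 and 3299 bases in R248W 1 and R248W 2 and 3135 and 3181 bases in WT 1 and WT 2, and one assigned to the bone factor gene Runx2 had 3361 and 3217 bases in the R248W libraries and 3355 and 3226 bases in the WT libraries.

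The markers' own starts were also read, with an interval counted only where it covered the start itself. Kit, Cd34, Meis1 and Mecom had an interval over their start in all 4 libraries, and the Sca1 gene Ly6a had none in any. Cd3e, Cd8a, Ncr1, Fcer1a, Pdgfra, Cdh5 and Pecam1 had none over their start in any library, while Cpa3 had signals of 50 and 45 in R248W 1 and R248W 2 and of 29 and 59 in WT 1 and WT 2. Cxcl12 had 44 and 23 in the R248W libraries and 48 in WT 2, Mcpt8 had 25 and 27 in WT 1 and WT 2, and Lck had 35 in WT 2. Shorter intervals did lie near some of these starts. With the summit within 2.5 kb, Cdh5 had signals of 123 and 88 in the R248W libraries and 77 and 144 in the WT libraries, Pecam1 57 and 63 in the R248W libraries and 35 and 69 in the WT libraries, and Lck 201 and 130 in the R248W libraries and 132 and 175 in the WT libraries.

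Most long regions were long in some libraries and shorter in the others. An interval of 3 kb or longer was called in 1 library for 692 regions (34.1%), in 2 for 413 (20.4%), in 3 for 337 (16.6%) and in all 4 for 585 (28.9%). Intervals of any length were called in all 4 libraries for 1948 regions (96.1%), against 58.0% of all merged regions. A missing long call was therefore seldom a missing call. Where a library had no interval of 3 kb, it had 1 shorter interval in 75.9 and 84.8% of regions in R248W 1 and R248W 2 and in 82.9 and 82.5% in WT 1 and WT 2, and several shorter ones in 15.4 and 13.1% in the R248W libraries and 12.7 and 14.6% in the WT libraries. The median length of the single shorter intervals was 2700 and 2493 bases in the R248W libraries and 2432 and 2675 bases in the WT libraries, not far under the limit.

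Promoter and island shares were higher in regions long in more libraries. The promoter share was 76.7% with 1 library, 78.9% with 2, 80.1% with 3 and 87.5% with 4, and the island share 70.1, 75.3, 79.2 and 87.7% in that order. The Wilson 95% intervals of the first and last groups did not overlap, with promoter shares of 73.4 to 79.7% and 84.6 to 90.0%. A region was counted if any of its long intervals had a promoter or island. Regions long in more libraries hold more intervals and were longer, with a median span of 3207 bases with 1 library and 4099 with 4. This raises both shares by construction, and how much of the rise it makes up was not tested. R248W 1 alone was long in 391 regions and R248W 2 alone in 64, against 70 for WT 1 alone and 167 for WT 2 alone, the same order as the lengths of the lists of long intervals. Within the 585 regions shared by all, R248W 1 had the longest interval in 293 and R248W 2 in 41, against 111 for WT 1 and 140 for WT 2. The spread of the 4 lengths there had a median of 9.64% of their mean.

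Few long regions followed genotype. An interval of 3 kb or longer was called in both R248W libraries and in neither WT library in 42 regions (2.07% of 2027), and in both WT libraries and neither R248W library in 35 (1.73%). Pairs across the genotypes that were long alone held 203 regions for R248W 1 with WT 2 and 90 for R248W 1 with WT 1. There were 35 for R248W 2 with WT 2 and 8 for R248W 2 with WT 1, so both counts within a genotype lay inside this range. At any length, 1 of the 2027 regions was called in both R248W libraries and neither WT library and 0 the other way, where 1.23% and 0.827% of all 69759 merged regions had these patterns. All 42 had shorter intervals in both WT libraries, and 33 of the 35 had shorter intervals in both R248W libraries. In the 42 the median shortest R248W length was 3199.5 bases, against a median longest WT length of 2694 bases. In the 35 the median longest R248W length was 2859 bases, against a median shortest WT length of 3085 bases. In 17 of the 42 and 24 of the 35 the gap was under 500 bases. These counts depend on single libraries: without R248W 1 they were 106 and 204, without R248W 2 433 and 66, without WT 1 74 and 202, and without WT 2 148 and 105.

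The gap of a region was the shortest length in the genotype called at 3 kb or longer minus the greatest summed length of all its intervals in a library of the other genotype. The 5 regions with the largest gap in the R248W direction were at Sox17, Hlx, Mapk6, Dgkh and Itpkb. The region assigned to Sox17, a transcription factor of fetal blood stem cells and endoderm, was chr1:4489996-4494113. It had intervals of 4117 and 3697 bases in R248W 1 and R248W 2. In WT 1 and WT 2 it had 1029 and 1127 bases. Its highest-bin signal was 285 and 166 in the R248W libraries and 163 and 288 in the WT libraries, so the WT intervals were short but not weak within their lists. No interval of 3 kb or longer had its summit within 2.5 kb of the assigned Sox17 start. The longest interval with its summit there had 2162 and 1865 bases in the R248W libraries and 1471 and 1634 bases in the WT libraries. Hlx, a homeobox gene of blood progenitors (chr1:184731271-184736398), had 5127 and 4820 bases in R248W 1 and R248W 2 and 2725 and 2565 bases in WT 1 and WT 2.

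Mapk6, an atypical MAP kinase, had 3525 and 3534 bases in the R248W libraries and 2083 and 2171 bases in the WT libraries. Itpkb, an inositol kinase, had 3031 and 3171 bases in R248W 1 and R248W 2 and 1767 and 1824 bases in WT 1 and WT 2. Dgkh, a diacylglycerol kinase, had 3897 and 4079 bases in the R248W libraries and 2546 and 2494 bases in the WT libraries. The lengths of the genotypes do not overlap in these regions because the regions were chosen so.

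In the WT direction the regions with the largest gaps were at Pou4f1, Frs2, Otx1, Atxn2 and Tgfbr1. Pou4f1, a POU factor of sensory neurons (chr14:104465346-104468975), had 1936 and 1837 bases in R248W 1 and R248W 2 and 3537 and 3629 bases in WT 1 and WT 2. Tgfbr1, the type I receptor of TGF-beta (chr4:47351133-47354544), had 2253 and 1895 bases in the R248W libraries and 3381 and 3386 bases in the WT libraries. Its signals of 544 and 350 in the R248W libraries and 324 and 529 in the WT libraries put it at or above the percentile 97.7 of every list. At Otx1, R248W 1 had no interval and R248W 2 had 2751 bases, against 4308 and 3984 bases in WT 1 and WT 2. Frs2, a docking protein of FGF receptors, had 1711 and 1697 bases in R248W 1 and R248W 2 and 3218 and 3396 bases in WT 1 and WT 2.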

How the data were processed

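ATAC-seq of 4 LSK libraries was analyzed from 1 deposited table of intervals, called per library, as each row names its library. MACS 1.4.2 and mm10 are named in the submitters' processing notes. No source used here names the aligner, filters, read-end shift or signal scaling. The depth is unknown. The authors' deposited signal values are the highest-bin and mean-bin signal of each interval, per the file headers. The promoter, CpG island and gene assignments are also the authors'. Coordinates are the file's, and length equaled end minus start, so starts may be counted from 0. No column belonged to other samples (0).

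Intervals of at least 3000 bases were selected and merged across libraries at 1 shared base (python 3.11.15, pandas 2.3.3, numpy 2.4.6, scipy 1.17.1). The selection, merging and counting were tested on simulated data. Shares and medians per library were compared by exact two-sided permutation tests, 2 libraries against 2, or by sign flips within the 4 libraries. Shares of regions carry Wilson 95% intervals, which cover counting error only. Named regions were the 12 longest in all 4 libraries, the 5 strongest, the 5 with the highest and lowest ratio, up to 4 per gene list by the shortest length, and the 5 per genotype with the largest length gap. Some of these are given. Other list members in the text were chosen after their values were seen, and some items that the rules select are left unreported here. The regions, the 15 gene lists (449 genes, of which 426 had an interval assigned, 12 by an older symbol) and the rules were chosen with earlier results of these data known. Promoter sequences are those of RefSeq on GRCm38.p6, in a table that does not hold every gene. Alternatives were length limits of 2500 and 4000 bases, equal numbers of intervals per library (46720), all intervals off X and Y, each library removed in turn, 50% reciprocal overlap, other summit windows, a replicate block, and, chosen after seeing the data, comparisons with intervals of 2 to 3 kb and within intervals with both a promoter and an island.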

Additional observations from a re-analysis of the deposited data

How the results depend on the processing

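The differences between long and shorter intervals in CpG island share, summit position and ratio kept their sign under both length limits, equal numbers of intervals, without X and Y and without each library. The summit share reversed in the comparisons chosen after seeing the data, to -2.28 points against intervals of 2 to 3 kb and to -14.7 points among intervals with both a promoter and an island. Among the latter, shorter intervals have less room for a summit far from a start. The genotype differences were near 0 and changed sign: the promoter share difference was -0.0943 points at 2500 bases and -0.502 at 4000 bases, and the island share difference -1.36 points at 4000 bases. Leaving out 1 library in turn gave -1.15 to 1.29 points for promoters, -0.858 to 3.39 points for islands and -0.349 to 0.235 for the ratio. The cause was not tested.

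Counts followed the limit by construction. At 2500 bases there were 4159 regions, 1421 in all 4 libraries, 80 in R248W and 70 in WT libraries alone, with promoter and island shares of 77.0 and 73.0%. At 4000 bases there were 558, 123, 14 and 7, with 83.5 and 81.4%. The promoter share was 63.8% when a summit within 1 kb of a start was required. Leaving out 1 library gave 74 to 433 regions long in R248W and 66 to 204 long in WT libraries alone, as 1 library then stands for a genotype. Under a reciprocal overlap of 50% there were 2037 regions, 582 in all 4 libraries.

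Pairing by replicate number in a replicate block left the genotype differences at 0.0718 points, 1.27 points and -0.0569 (exact sign-flip p = 1.00 each, smallest possible 0.5), and the labels do not say that a number marks a shared litter or day. With no depth or scaling, differences in list size between libraries limit every count of long intervals.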

Other observations

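Noncoding RNA genes were among the long regions. The list of noncoding host and nuclear RNA genes had a long interval near the start at 7 of 29 genes in at least 1 library (24.1%, against 8.91% of all genes) and at 2, Gas5 and Dleu2, in all 4. The region of Mir99b, Mirlet7e and Mir125a, a microRNA cluster enriched in blood stem cells (chr17:17825627-17830316), had intervals of 4689 and 4257 bases in R248W 1 and R248W 2 and of 4218 and 4463 bases in WT 1 and WT 2. It was flat and weak, with ratios of 2.22 and 2.25 in the R248W libraries and 2.39 and 2.25 in the WT libraries. The Mir17hg cluster, whose microRNAs are needed in B cell development (chr14:115039446-115043372), had 3926 and 3599 bases in R248W 1 and R248W 2 and 3692 and 3617 bases in WT 1 and WT 2. Its signals of 392 and 279 in the R248W libraries and 283 and 428 in the WT libraries were at or above the percentile 95.7 of each list. Mir142, a microRNA of all blood cells, had an interval of 7315 bases in WT 2 and none in R248W 1, R248W 2 or WT 1. Malat1, a nuclear long noncoding RNA, had 2575 bases in R248W 2 and 4525 and 2634 bases in WT 1 and WT 2, and none in R248W 1. Xist, on the X chromosome, stayed under the limit, with 1319 bases in R248W 2 and 1148 bases in WT 2. It had no interval near the start in R248W 1 or WT 1, a split inside both genotypes. Whether the libraries differ in sex was not tested, and Xist is named after its values were seen.

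Long regions without an assigned gene are named here after their values were seen. A region on chr4:3049834-3056781 had 6863 and 6939 bases in R248W 1 and R248W 2 and 6889 and 6910 bases in WT 1 and WT 2, at ratios of 2.26 and 2.40 in the R248W libraries and 2.15 and 2.36 in the WT libraries. A region on chr11:3099859-3106435 had 6473 and 6256 bases in the R248W libraries and 6525 and 6287 bases in the WT libraries. Its highest-bin signal was 548 and 344 in R248W 1 and R248W 2 and 280 and 557 in WT 1 and WT 2. Both had neither a promoter nor a CpG island, and both lay at low coordinates of their chromosomes. As no source used here names the filters, whether these 2 intervals reflect open chromatin or the mapping of reads was not tested.

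Some of the longest intervals were long in 1 library only, over a peak that the others also called, and they too are named after their values were seen. At Per1, a circadian repressor gene (chr11:69094241-69101442), WT 2 had an interval of 7201 bases, against 2215 and 2100 bases in R248W 1 and R248W 2 and 2182 bases in WT 1. At Zyx, which encodes a focal adhesion protein (chr6:42348536-42356476), R248W 1 had 7940 bases, against 2734 bases in R248W 2 and 2852 and 2821 bases in WT 1 and WT 2. At Zc3h12a, which encodes an RNase that degrades inflammatory mRNAs, WT 2 had 6567 bases, against 1834 and 1799 bases in R248W 1 and R248W 2 and 1865 bases in WT 1.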
